A study of Mus musculus with 2 samples.

Results

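Smooth muscle vessel-rich spots were studied in 2 mouse heart sections profiled by Visium CytAssist spatial gene expression, which captures probes for each gene on a grid of barcoded spots and counts them by unique molecular identifiers (UMIs). Spots over tissue with at least 1000 UMIs were scored by the share of UMIs from Myh11, Tagln and Cnn1, which encode the heavy chain of smooth muscle myosin, transgelin and calponin, and the 10% of spots with the highest score in each section were taken as vessel-rich. This gave 217 vessel-rich spots among 2180 spots over tissue. There were 125 vessel-rich and 1124 remaining spots in the control section, and 92 vessel-rich and 829 remaining spots in the transgenic section. The control was an α-MHC-MerCreMer+/− mouse and the transgenic animal an α-MHC-MerCreMer+/−TOP2B LSL/− mouse, and both received a single intraperitoneal dose of 80 mg/kg of tamoxifen. Both therefore carried the Cre recombinase that tamoxifen releases in cardiomyocytes under the α-MHC promoter, and the transgenic animal also carried a human TOP2B cDNA behind a CAG promoter and a STOP cassette flanked by LoxP sites at Rosa26. The transgene was thus meant to act in cardiomyocytes and not in the smooth muscle cells described here. The study's methods give 6-week-old mice for this dose. Each genotype is represented by 1 section of 1 animal, so no difference has a replicate check and no p-value was computed. Animal, section plane and genotype cannot be told apart.

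Vascular smooth muscle cells form the media of arteries and arterioles. Their contraction is set by phosphorylation of myosin light chains, which myosin light chain kinase adds after calcium entry and a phosphatase removes. The same cells make elastin and microfibril proteins, contact the endothelium and lie within a collagen-rich adventitia. When injured they can lower their contractile genes and raise genes of matrix, adhesion and calcification, a state called phenotypic modulation. A Visium spot covers several cells, so a vessel-rich spot is a region that holds smooth muscle among cardiomyocytes, endothelium and fibroblasts, and fewer cells of a type cannot be told apart from less RNA per cell.

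Depth was similar inside each section. Vessel-rich spots held 1464691 UMIs in the control section, with a median of 11663 per spot against 11315 in the remaining spots, and 1331098 UMIs in the transgenic section, with medians of 15176.5 and 14467. The sections shared 725 position barcodes, which arrays of the same design have in common. The score itself rested on few molecules. Vessel-rich spots had from 1 to 42 UMIs of the score genes with a median of 4 in the control section, and from 1 to 36 with a median of 5 in the transgenic section. The lowest score inside was 1.96 per 10000 UMIs and the highest outside 1.96 in the control section, and these values were 2.44 and 2.43 in the transgenic section. Cutoffs therefore fell on neighbouring values with no gap between chosen and remaining spots. Myh11 supplied 43.0% of the score UMIs of control vessel-rich spots and 21.5% of those in the transgenic section, Tagln 53.4% and 62.1%, and Cnn1 3.59% and 16.4%. These values chose the spots and are given as description.

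Vessel-rich spots lay in patches in both sections. In the control section they formed 40 groups of touching spots, the largest of 14, 13 and 12 spots, and 21 spots stood alone. In the transgenic section they formed 41 groups, 2 of them large with 21 and 16 spots, and 28 spots stood alone. On average 38.3% of the neighbours of a control vessel-rich spot were also vessel-rich, against 7.04% of the neighbours of a remaining spot, and in the transgenic section these shares were 29.0% and 7.90%. Edge spots of the tissue made up 8.80% of control vessel-rich spots and 33.7% of transgenic ones. Among remaining spots the edge held 19.0% and 33.4%. The transgenic vessel-rich spots thus lay at the rim of the tissue more often than the control ones, as did the transgenic spots at large. Touching spots are not independent, so these shares carry no interval and no test.

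**Figure D1:**
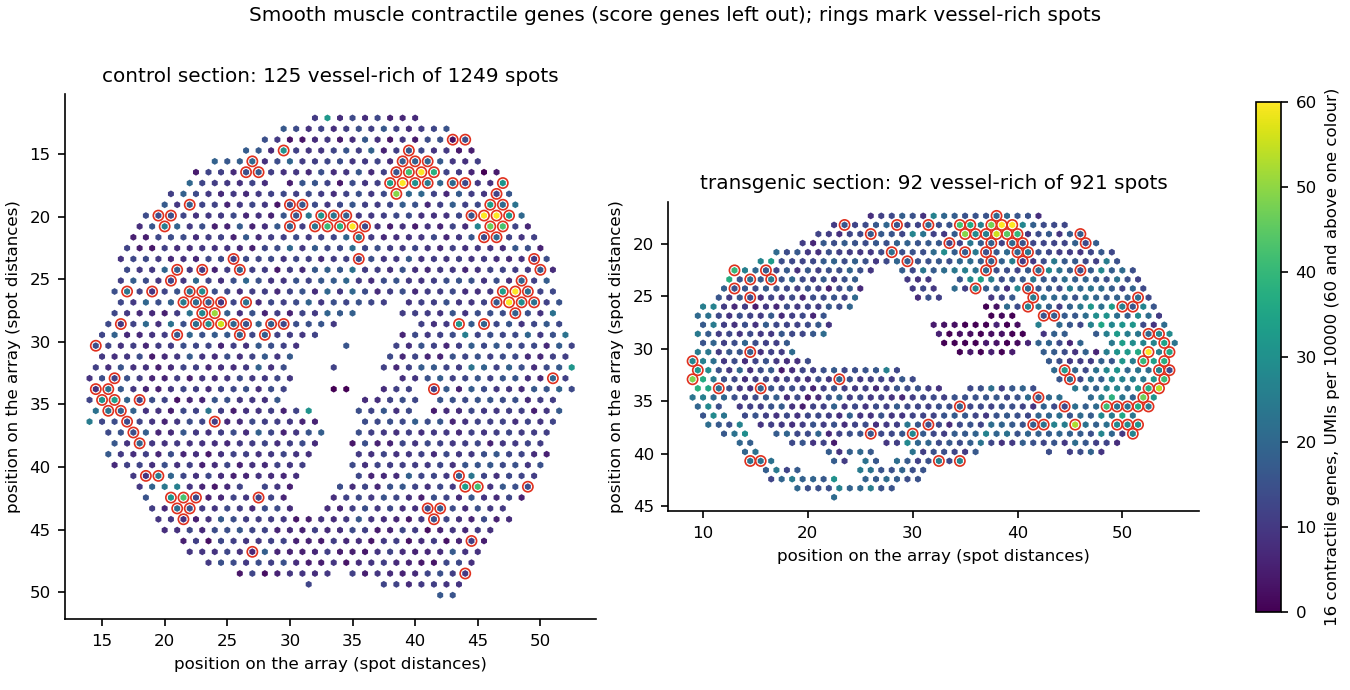
Maps of both sections by array position in spot distances, with each spot coloured by the UMIs per 10000 of 16 smooth muscle contractile genes that the score did not use (values of 60 and above share 1 colour) and red rings around vessel-rich spots. Patches of high values coincide with groups of rings, and single rings often surround spots of ordinary colour.

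The label was checked against 17 further genes of the smooth muscle contractile apparatus, of which Myl6 was not analysed here. In each spot their UMIs were summed and set per 10000 UMIs. Control vessel-rich spots ranged from 2.60 to 150 with a median of 18.6, and control remaining spots from 0 to 31.9 with a median of 10.97. Transgenic vessel-rich spots ranged from 10.8 to 84.3 with a median of 22.5, and the remaining spots from 0 to 38.2 with a median of 15.1. The sets overlapped broadly in both sections, and only vessel-rich spots held the upper tail. The list was higher in each higher class of the score. Control spots with no UMI of the score genes had 1075 contractile UMIs per 1000000 UMIs (CPM), those with 4 to 6 had 2044 CPM and those with 7 or more had 4267 CPM, while the transgenic values were 1426, 2157 and 3542 CPM. Vessel-rich spots that stood alone had contractile sums of 1573 (control) and 2031 CPM (transgenic), below the 2875 and 3101 CPM of spots in groups of 3 or more. Contractile genes outside the score were thus higher in the chosen spots, more in grouped than in lone ones, and these genes come from the same spots and libraries as the score.

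For each gene, UMIs were summed over the spots of a set and divided by the set's total, and sets were compared by the log2 ratio of CPM. Ranges in parentheses are 95% intervals that cover counting error only, and PCR, sections and animals add error that they leave out. A gene was counted as higher or lower when its ratio passed 2-fold among genes with at least 200 UMIs in a section. In the control section 35 of 7219 genes were higher in vessel-rich than in remaining spots, or 0.485%, and 9 were lower, or 0.125%. In the transgenic section 27 of 7587 genes were higher, or 0.356%, and 18 were lower, or 0.237%. This minimum can itself fix a call, since a gene with few UMIs in 1 set reaches it only through the other. In the control section it fixed 3 of the 35 higher and 3 of the 9 lower calls. In the transgenic section it fixed 1 of the 27 higher and 5 of the 18 lower calls. The median log2 ratio of all genes was 0.02 and 0.05. Since the spots were chosen on vessel genes in the same libraries, these contrasts describe the chosen spots and carry no test. The split moved with the scaling, to 25 higher and 16 lower control genes with TMM factors and 25 and 13 with DESeq2 size factors. For the transgenic section it moved to 15 and 30, and to 14 and 31, as the median of all genes went to -0.08 and -0.09 there. Top2b, the gene of the transgene, stood at 112 CPM in vessel-rich and 106 CPM in remaining control spots, and at 96.2 and 102 CPM in the transgenic spots. The log2 ratio of transgenic over control vessel-rich spots was -0.22 (-0.56 to 0.12). Whether the mouse probes read the human cDNA is not given in the sources used here, so these values check no label.

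Contractile genes led the control contrast. Of the 12 list members with enough UMIs, 8 were more than 2-fold higher in control vessel-rich spots and 11 lay above 0, with a median log2 ratio of 1.39. Of the same 12 in the transgenic section, 2 were more than 2-fold higher and all 12 lay above 0, with a median of 0.82. The summed list stood at 2545 CPM in vessel-rich and 1122 CPM in remaining control spots, and at 2678 and 1637 CPM in the transgenic section. Vessel-rich levels of both sections were thus close, while remaining spots of the transgenic section had the higher contractile level.

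Tpm2 (ENSMUSG00000028464), the β-tropomyosin of smooth and slow muscle, gave the highest ratio of the control section. It stood at 298 CPM in vessel-rich and 43.6 CPM in remaining control spots, and at 281 and 143 CPM in the transgenic section. Its log2 ratio was 2.77 (2.59 to 2.96) in the control and 0.97 (0.81 to 1.13) in the transgenic section. Myl9 (ENSMUSG00000067818), the regulatory light chain that is phosphorylated to start contraction, stood at 279 and 45.3 CPM in the control and at 262 and 113 CPM in the transgenic section. The log2 ratio of Myl9 was 2.62 (2.43 to 2.80) and 1.21 (1.03 to 1.38). Mylk, the kinase that phosphorylates it, stood at 58.0 and 13.2 CPM in the control and at 45.1 and 17.2 CPM in the transgenic section, with log2 ratios of 2.13 (1.74 to 2.51) and 1.39 (0.95 to 1.81). Acta2 (ENSMUSG00000035783), smooth muscle α-actin, stood at 707 and 245 CPM in the control and at 643 and 386 CPM in the transgenic section, with log2 ratios of 1.53 (1.42 to 1.63) and 0.74 (0.63 to 0.84).

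Of the 12 members, 10 had the higher ratio in the control section. The actin-bundling protein gene Csrp1 had log2 ratios of 1.49 in the control and 0.87 in the transgenic section, and Ppp1r14a, an inhibitor of myosin phosphatase, 1.40 and 0.91. Filamin A (Flna) had 1.37 and 0.47. Actn1, a nonmuscle α-actinin, was close at 1.06 and 1.00, and caldesmon (Cald1) lay at 0.94 and 0.76. Pdlim7 had 0.33 and 0.22. The exceptions were smoothelin (Smtn), at -0.03 and 0.11, which did not mark these spots, and Synpo2, at 0.19 and 0.49. Lmod1, Actg2, Itga8 and Kcnmb1 had under 200 UMIs in each section. All 4 had higher CPM in vessel-rich spots of both sections, for example 31 Lmod1 UMIs in vessel-rich and 32 in the more numerous remaining control spots.

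**Figure D2:**
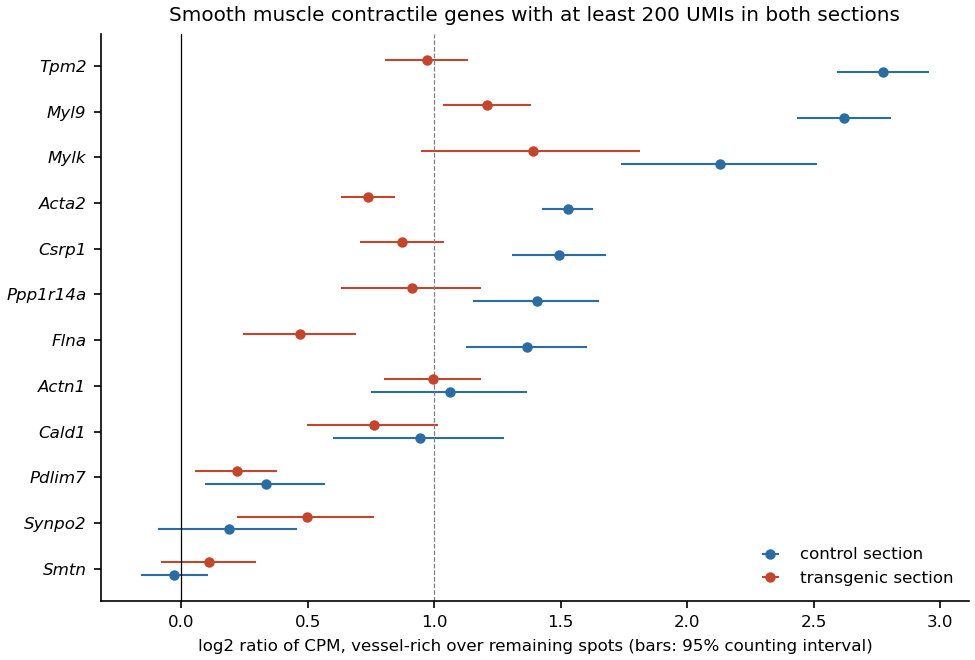
Log2 ratio of CPM in vessel-rich over remaining spots for the 12 contractile genes with at least 200 UMIs in both sections, in the control (blue) and transgenic (red) section; bars are 95% counting intervals and the dashed line marks 2-fold. Tpm2, Myl9, Acta2, Csrp1 and Flna have separate intervals with the control value higher, while Mylk, Ppp1r14a, Actn1, Cald1, Pdlim7, Synpo2 and Smtn overlap.

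Myl9 and Mylk were the contractile genes past 2-fold in both sections, though with a score without Tagln their transgenic ratios were 0.85 and 0.84 and no contractile gene passed 2-fold there. RefSeq promoter windows on GRCm38.p6, from 250 bases before to 50 bases after each start site, were searched on both strands for the CArG box, an element of 10 bases that serum response factor binds with myocardin in smooth muscle genes. Of the 16 contractile genes, 15 matched a window, and 1 of their 17 windows held a box, that of Myl9, against 1.63% of all 32851 windows. The stretch of this window that lies before the annotated gene is chr2:156775214-156775407 on the plus strand, and it is shown because Myl9 was high in vessel-rich spots of both sections. A match is a description of the letters, and binding was not measured. Capitals mark the box, whose first base lies 161 bases before the start site.
Myl9: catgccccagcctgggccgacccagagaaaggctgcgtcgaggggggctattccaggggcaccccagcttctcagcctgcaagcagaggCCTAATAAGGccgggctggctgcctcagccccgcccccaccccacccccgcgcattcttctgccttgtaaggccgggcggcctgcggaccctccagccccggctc

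Vasoactive and regulatory genes of smooth muscle gave a mixed picture. Among 10 measured genes of contraction and relaxation signalling in the control section, 3 were more than 2-fold higher in vessel-rich spots, with a list median of 0.18. These were Aoc3, an amine oxidase of smooth muscle surfaces, at 1.76 (1.44 to 2.07), Mrvi1, a target of the cGMP kinase, at 1.73 (1.38 to 2.07), and Gucy1a1, a subunit of the nitric oxide receptor, at 1.38 (0.99 to 1.76). None of 8 measured members passed 2-fold in the transgenic section, with a median of 0.13. There Aoc3 had 0.32 (-0.00 to 0.63), Mrvi1 0.56 (-0.02 to 1.09) and Gucy1a1 0.75 (0.37 to 1.11). The α1-adrenergic receptor gene Adra1b was near 0 at -0.02 and -0.15. Rgs2, which damps signals of such receptors, lay below 0 without passing 2-fold, at -0.51 and -0.33. Transcription and Notch regulators had medians of 0.18 in the control and 0.40 in the transgenic section. Of 11 measured in the control section 1 passed 2-fold, Jag1, a Notch ligand, at 1.13 (0.62 to 1.61), and none of 12 did in the transgenic section. The Notch receptor gene Notch3 had 0.82 (0.56 to 1.07) and 0.72 (0.46 to 0.97), and the coactivator gene Myocd -0.01 and -0.03.

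Arterial endothelial genes summed to 301.1 CPM in vessel-rich and 168 CPM in remaining control spots, and to 374 and 294 CPM in the transgenic section. In the control section all 6 measured members lay above 0 and 2 passed 2-fold, with a median of 0.69. In the transgenic section 5 of 7 lay above 0 and 1 passed 2-fold, with a median of 0.14. Capillary genes went the other way, from 745 CPM in remaining to 695 CPM in vessel-rich control spots and from 659 to 509 CPM in the transgenic section. Gja4, the arterial gap junction protein connexin 37, stood at 50.5 and 16.04 CPM in the control and at 72.1 and 49.6 CPM in the transgenic section, with log2 ratios of 1.66 (1.25 to 2.05) and 0.54 (0.21 to 0.86). Sema3g, a semaphorin of arterial endothelium, had 1.54 (1.15 to 1.91) and 1.05 (0.71 to 1.39). The capillary genes Kdr, the main VEGF receptor, and Rgcc had -0.05 and -0.08 in the control section but -0.51 (-0.81 to -0.23) and -0.69 (-0.98 to -0.41) in the transgenic section. Genes of all endothelium summed to 1287 and 1119 CPM in the control and to 1505 and 1379 CPM in the transgenic section. Venous genes stood at 79.9 and 76.3 CPM in the control and at 298 and 213 CPM in the transgenic section, where Vwf held most UMIs. Pericyte genes did not mark the spots, with sums of 1137 and 1095 CPM in the control and 1086 and 1018 CPM in the transgenic section, and Rgs5 at -0.04 and -0.00. Of the endothelial lists, the arterial one had the highest ratio of sums in the control section, at 0.84 (0.69 to 0.99), and the venous one in the transgenic section, at 0.49 (0.33 to 0.64), with an interval that overlapped that of the arterial list there, 0.35 (0.21 to 0.48).

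Among the 35 control and 27 transgenic genes more than 2-fold higher in vessel-rich spots, 4 were shared, 11.4% of the control and 14.8% of the transgenic genes. They were Myl9, Mylk, Sema3g and Atp2a3, a calcium pump of the sarcoplasmic reticulum that is not the cardiomyocyte form. Over the alternative settings the transgenic log2 ratio fell as low as 0.85 for Myl9, 0.84 for Mylk and 0.62 for Sema3g, all under 2-fold. Of the 33 control genes that had enough UMIs in the transgenic section, 31 lay above 0 there, where 4429 of all 7587 genes did, and the 4 shared genes are among them. Only 5 of the transgenic genes had enough UMIs in the control section, the 4 shared ones included. Atp2a3 had log2 ratios of 1.98 (1.58 to 2.38) and 1.24 (0.88 to 1.59).

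Elastic fibres lie between the smooth muscle layers of arteries. Elastin (Eln) stood at 130 CPM in vessel-rich and 38.0 CPM in remaining control spots, a log2 ratio of 1.78 (1.53 to 2.02), and at 2553 and 1433 CPM in the transgenic section, a ratio of 0.83 (0.78 to 0.89). The microfibril gene Mfap4 stood at 49.8 and 12.2 CPM, then at 540 and 324 CPM, with ratios of 2.03 (1.61 to 2.43) and 0.74 (0.62 to 0.85). These were the 2 of 14 measured members of the elastic fibre list more than 2-fold higher in the control section, and none of 16 was in the transgenic section. For Mfap4 the minimum of UMIs fixed the control call, as it had 73 UMIs in vessel-rich and 158 in remaining control spots. The list medians were 0.27 and 0.49. Basement membrane genes lay evenly around 0 in the control section, 5 of 10 above it with a median of -0.00, and had a median of 0.37 in the transgenic section, where 10 of 11 lay above 0.

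Nppa (ENSMUSG00000041616), which encodes atrial natriuretic peptide and is a cardiomyocyte gene, was the exception among the leading control genes. It stood at 954 CPM in vessel-rich and 196 CPM in remaining control spots, a log2 ratio of 2.28 (2.18 to 2.37). The 10 vessel-rich spots with the most Nppa UMIs held 47.0% of them, and the spots ranged from 0 to 141 per 10000 with a median of 2.06, against a median of 0 in remaining spots. Of 5 measured genes of the stressed cardiomyocyte, 2 passed 2-fold in the control section, Nppa and Myh7. With TMM factors or DESeq2 size factors, which lower all control ratios alike, Nppa alone passed. Ankrd1, a stress-induced titin-binding protein, had 0.88 (0.81 to 0.94), skeletal actin (Acta1) 0.92 (0.79 to 1.04) and Myh7, the β-myosin heavy chain, 1.01 (0.67 to 1.35). Atrial marker genes did not accompany them, at 15.0 CPM in vessel-rich and 22.2 CPM in remaining control spots with Myl4 holding most UMIs. In the transgenic section Nppa stood at 24275 and 19789 CPM, a ratio of 0.29 (0.28 to 0.31), Ankrd1 at -0.02 and Myh7 at -0.28 (-0.31 to -0.25). Of 6 stress genes measured there, 1 passed 2-fold and 4 lay above 0, with a median of 0.15.

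Genes of several kinds led the transgenic contrast beside Mylk and Myl9. The highest ratio was that of Gap43, a growth cone and injury protein, at 1.61 (1.19 to 2.02), with 51.1 CPM in vessel-rich and 16.7 CPM in remaining spots. Thbs4, a thrombospondin of stressed matrix, had 1.35 (1.14 to 1.55), Ddah1, an enzyme that clears an inhibitor of nitric oxide synthase, 1.34 (0.93 to 1.73), and the growth factor gene Bmp4 1.22 (0.78 to 1.64). Of 10 measured genes of activated fibroblasts 5 were more than 2-fold higher and all 10 lay above 0, with a median of 0.92. Fibronectin (Fn1) had 1.07 (0.95 to 1.20) there and 0.26 (-0.09 to 0.59) in the control section, and Cilp, a matrix protein of fibrotic tissue, 1.17 (0.99 to 1.36). The transgenic ratio of Fn1 ranged from 0.69 to 1.20 over the alternative settings, so the count of 5 depends on them. Periostin (Postn), with most UMIs of the list, had 0.75 (0.66 to 0.85) against 0.19 (-0.41 to 0.75). Fibrillar collagens had a median of 0.34 in the control section, where 7 of 10 lay above 0 and 1 passed 2-fold. In the transgenic section their median was 0.74, 9 of 10 lay above 0 and none passed 2-fold.

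Cardiomyocyte and erythroid genes summed to lower levels in vessel-rich than in remaining spots of both sections. Macrophage genes summed to higher levels there, at 406 and 356 CPM in the control and at 872 and 673 CPM in the transgenic section. So did interstitial fibroblast genes, at 1385 and 1219 CPM and at 2208 and 1927 CPM. No measured member of either list passed 2-fold in either section. Cardiomyocyte genes, 18 analysed of 19, summed to 154446 and 161656 CPM in the control and to 60726 and 76844 CPM in the transgenic section, with medians of -0.06 and -0.36. Fatty acid oxidation genes had medians of -0.10 and -0.56. Erythroid genes, led by Hba-a2 with 4 of 5 analysed, summed to 1453 and 2092 CPM in the control and to 11037 and 21429 CPM in the transgenic section. Hba-a2, an α-globin gene of red blood cells, was among the 18 lower transgenic genes, at -1.01 (-1.04 to -0.99). The erythroid direction rested on few spots of the transgenic section. Erythroid genes held at least 10% of UMIs in 53 of its spots, 52 of them remaining spots, and without such spots in either section the sums were 11003 and 7945 CPM, higher in vessel-rich spots. The contractile sums were then 2742 and 1660 CPM, and 38 genes passed 2-fold in the transgenic section in place of 45. The lowest genes of the control section, Umad1 at -1.55 (-2.78 to -0.55), Dhcr7 and Pan2, had 8, 9 and 13 UMIs in vessel-rich spots and share no list. For Umad1 and Dhcr7 the minimum of UMIs fixed the call.

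Levels were also read in rings of array steps from the nearest vessel-rich spot. In the control section the contractile sum was 2545 CPM in the vessel-rich spots themselves, 1253 CPM at 1 step, 1096 CPM at 2 steps and 1059 CPM at 3 or more, so it had reached the level of distant tissue within 2 steps. The transgenic values were 2678, 1845, 1617 and 1491 CPM and still declined. Activated fibroblast genes were at 3133, 2425, 1697 and 1142 CPM in the transgenic rings, against 160, 122, 121 and 113 CPM in the control. Erythroid genes differed over the same transgenic rings, at 11037, 9716, 15752 and 34157 CPM, and their part in these values was not tested. Cardiomyocyte genes went from 60726 CPM in transgenic vessel-rich spots to 69299, 76676 and 82734 CPM, while the control rings outside the vessel-rich spots lay between 161356 and 161788 CPM. Nppa in the control section was at 954, 252, 118 and 206 CPM and so was not lowest farthest away.

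**Figure D3:**
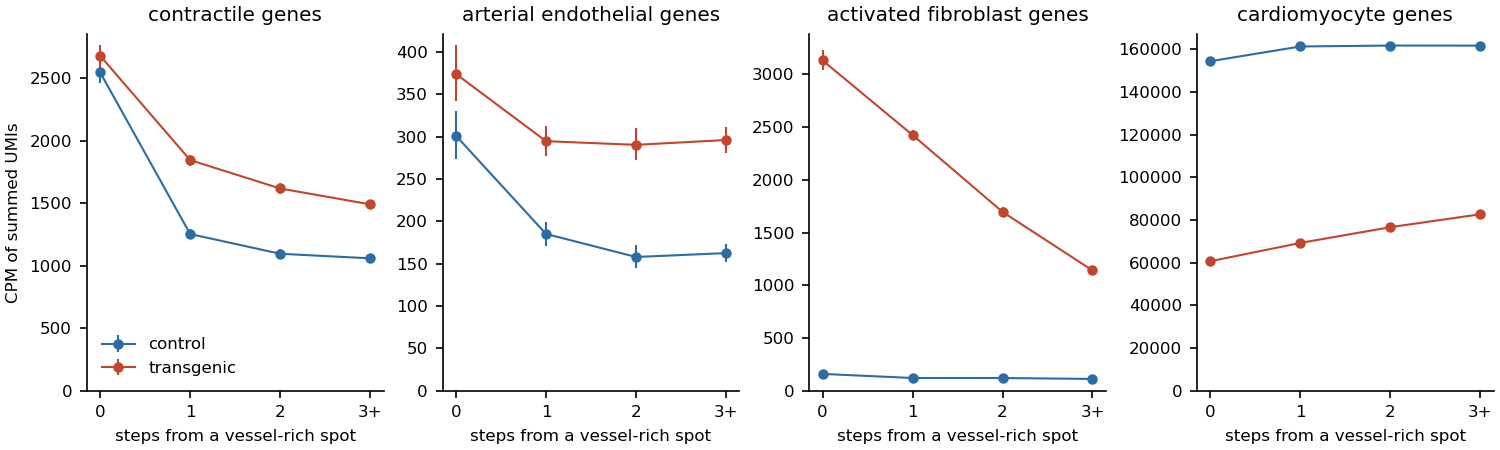
Summed CPM of contractile, arterial endothelial, activated fibroblast and cardiomyocyte genes (panels, each with its own axis from 0) against the number of array steps to the nearest vessel-rich spot in the control (blue) and transgenic (red) section, with 95% counting intervals. The contractile level drops within 1 step in the control section, and activated fibroblast genes decline over all rings of the transgenic section.

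Vessel-rich spots of both sections were then compared with each other over genes with at least 50 UMIs in them. Of 7069 genes, 1047 were more than 2-fold higher in the transgenic section, or 14.8%, and 551 were more than 2-fold lower, or 7.79%. The median of all genes was 0.21, and it was 0.20 for the same genes in the remaining spots. The split between higher and lower genes moved with the scaling, to 812 and 742 with TMM factors and to 712 and 829 with DESeq2 size factors, under which the median of all genes was 0.04 and -0.04. The minimum of 50 UMIs can itself fix a call, since a gene with few UMIs in one section reaches it only by being high in the other. This held for 205 of the 1047 higher and 51 of the 551 lower genes. Values are therefore read beside the median of all genes and beside the same ratio in the remaining spots. For most lists the remaining spots differed between the sections in the same direction.

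Contractile genes were at similar levels in vessel-rich spots of both sections. The median of 13 measured members was -0.09 in vessel-rich spots and 0.92 in remaining spots, and 2 members passed 2-fold upward, Actn1 at 1.47 (1.14 to 1.80) and Pdlim7 at 1.24 (0.97 to 1.51). With DESeq2 size factors the median in vessel-rich spots was -0.34, and the same shift takes Pdlim7 just under 2-fold. Tpm2 had -0.09 (-0.29 to 0.12) in vessel-rich spots and 1.72 (1.58 to 1.86) in remaining spots. Myl9 had -0.09 (-0.30 to 0.12) and 1.32 (1.18 to 1.47), and Acta2 -0.14 (-0.27 to -0.01) and 0.65 (0.59 to 0.72). Smoothelin lay below 0 in both sets without passing 2-fold, at -0.83 (-1.05 to -0.61) and -0.96 (-1.04 to -0.89). Because the top 10% was taken in each section, the chosen share of spots was fixed and could not differ between the sections.

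Smooth muscle signalling and regulator genes split by gene. Mrvi1 was lower in transgenic vessel-rich spots at -1.46 (-2.08 to -0.88), with -0.29 (-0.56 to -0.02) in the remaining spots. The receptor genes Adra1b, at -1.11 (-1.60 to -0.65), and Adra1a, at -3.48 (-5.41 to -2.03), were also lower, and the remaining spots had -0.99 (-1.14 to -0.84) and -2.16 (-2.53 to -1.81). Both receptor genes were thus lower in the remaining spots too, and which cells their UMIs came from was not tested. Gucy1b1, the β subunit of the nitric oxide receptor, was higher at 2.07 (1.56 to 2.61), with 2.34 in remaining spots. Among regulators, Foxs1 at 1.86 (1.05 to 2.73), Mrtfa at 1.34 (0.55 to 2.18), Rbpms at 1.28 (1.07 to 1.49) and Heyl at 1.13 (0.81 to 1.45) were higher and Rbpms2 was lower at -1.31 (-1.80 to -0.85), and the median of 12 regulators was 0.19 in vessel-rich and 0.34 in remaining spots. Myocd had -0.53 (-0.96 to -0.10). The minimum of UMIs fixed 1 of the 3 lower signalling calls and 1 of the 4 higher regulator calls. The 10 genes of modulated smooth muscle together went from 864 to 3599 CPM, with most UMIs from Mgp in both sections. In the remaining spots they went from 509 to 2180 CPM, and the list median was 2.14 in vessel-rich and 2.11 in remaining spots. Of 8 members with enough UMIs in vessel-rich spots 7 passed 2-fold there, and for 3 of these the minimum fixed it. Mgp, an inhibitor of calcification, went from 746 to 3028 CPM, Thbs1 from 31.4 to 231 CPM and Timp1 from 2 to 80 UMIs, a ratio of 5.46 (3.56 to 8.53). Abcc9, a potassium channel subunit gene on the pericyte list, was lower at -2.01 (-2.37 to -1.67), and which cells its UMIs came from was not tested. The median of 11 pericyte genes was -0.12 in vessel-rich and -0.01 in remaining spots.

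**Figure D4:**
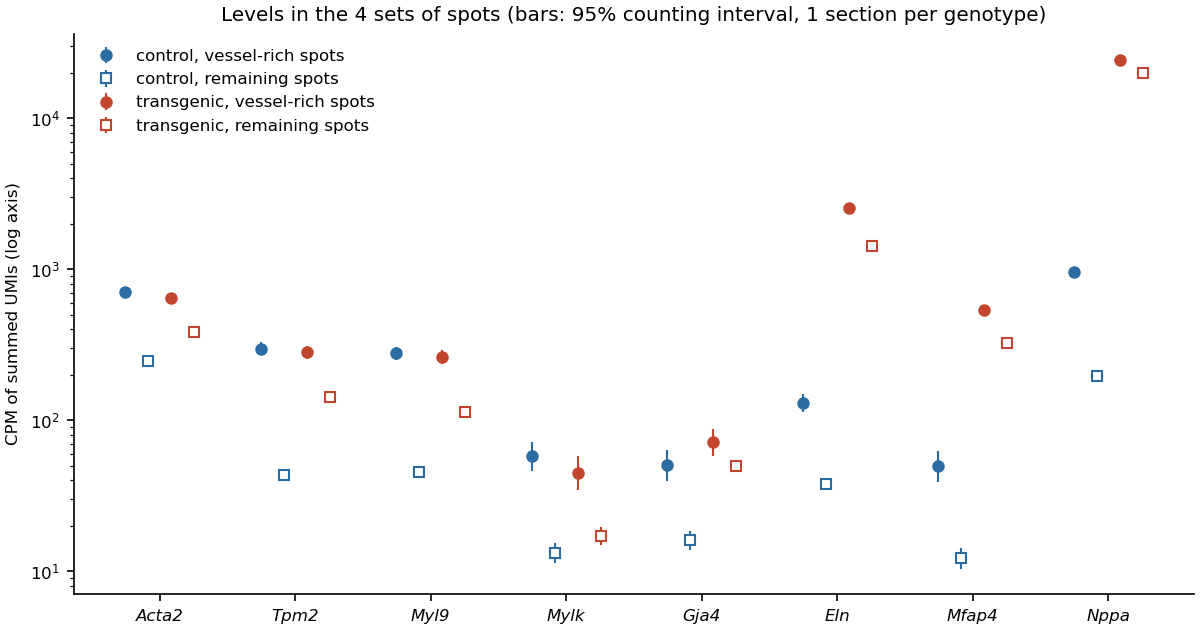
CPM of 8 genes on a log axis in vessel-rich (filled circles) and remaining spots (open squares) of the control (blue) and transgenic (red) section, with 95% counting intervals. For Acta2, Tpm2 and Myl9 the filled circles of both sections lie close and the red square lies above the blue one, for Mylk the red circle lies below the blue one, and Eln, Mfap4 and Nppa are higher in both transgenic sets.

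Matrix genes were much higher in the transgenic section, in vessel-rich and in remaining spots alike. The summed elastic fibre list had a log2 ratio of 2.48 between vessel-rich spots and 2.32 between remaining spots. Fibrillar collagens had 2.58 and 2.09. Elastin had a log2 ratio of 4.29 (4.08 to 4.51) between vessel-rich spots and 5.24 (5.11 to 5.37) between remaining spots, and Mfap4 3.44 (3.09 to 3.81) and 4.73 (4.50 to 4.97). Of 15 measured elastic fibre genes 13 were more than 2-fold higher, and of 10 fibrillar collagens 8 were. For 1 of the 13 the minimum of UMIs fixed this. Col1a1 went from 216 to 1838 CPM, and Col3a1 from 537 to 2862 CPM. All 13 genes of activated fibroblasts together went from 160 to 3133 CPM, a log2 ratio of 4.29 (4.10 to 4.48), against 3.85 (3.78 to 3.93) in the remaining spots. All 10 members with enough UMIs passed 2-fold, but for 5 of them the minimum fixed this. Postn went from 20.5 to 802 CPM, a ratio of 5.29 (4.77 to 5.87), and Comp, a cartilage and scar matrix protein, from 8 to 578 UMIs, a ratio of 6.31 (5.32 to 7.53). The highest value was that of Sprr1a, a stress protein, at 8.51 (6.02 to 13.82), from 1 control UMI to 331. Basement membrane genes had a median of 0.93, all 11 above 0, with Col4a1 at 1.25 (1.11 to 1.38) and Nid1 at 2.05 (1.73 to 2.37). The median of the same members was 0.76 in the remaining spots.

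Genes of other cell types moved with these values, and their part in them was not tested. Interstitial fibroblast genes summed to 1385 CPM in control and 2208 CPM in transgenic vessel-rich spots, with most UMIs from Gsn in the control and Dcn in the transgenic section and no member at 0. Macrophage genes went from 406 to 872 CPM, led by C1qa with no member at 0, and venous genes from 79.9 to 298 CPM. In the remaining spots interstitial fibroblast genes went from 1219 to 1927 CPM, macrophage genes from 356 to 673 CPM and venous genes from 76.3 to 213 CPM. Epicardial genes, which mark the surface layer of the heart, went from 28.7 to 102 CPM between vessel-rich spots, and in the remaining spots they stood at 39.4 and 50.2 CPM. Msln alone went from 4 to 44 UMIs. Erythroid genes went from 1453 to 11037 CPM, and from 2092 to 21429 CPM in the remaining spots. The arterial and pan-endothelial lists had no member past 2-fold, with medians of 0.36 and 0.20.

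Cardiomyocyte genes were lower in the vessel-rich spots of the transgenic section. The median of 18 was -1.55, with 12 more than 2-fold lower, and it was -1.10 in the remaining spots. Fatty acid oxidation genes had a median of -1.51 with 9 of 12 more than 2-fold lower, against -0.92 in the remaining spots. Ucp3, a mitochondrial uncoupling protein of muscle, gave the lowest ratio of all measured genes at -5.16 (-7.46 to -3.58), from 118 to 3 UMIs, followed by Fndc5 at -4.73 (-5.61 to -3.97) and Kcnip2, a subunit of cardiac potassium channels, at -3.98 (-4.76 to -3.30). Stress genes were higher in all 6 measured members, with Myh7 at 6.75 (6.45 to 7.06) and Nppa at 4.67 (4.59 to 4.75). For 1 of the 6 the minimum of UMIs fixed this. The remaining spots differed more, with 8.04 (7.89 to 8.18) for Myh7 and 6.65 (6.60 to 6.71) for Nppa, and the list median was 3.79 in vessel-rich and 5.23 in remaining spots.

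**Figure D5:**
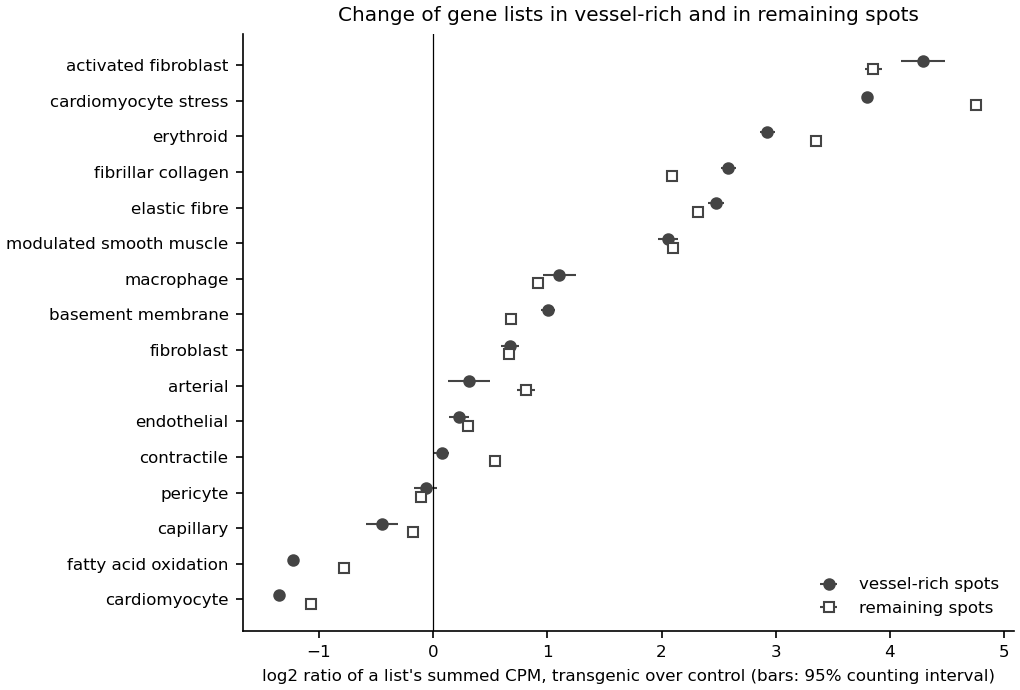
Log2 ratio of summed CPM, transgenic over control, of 16 gene lists in vessel-rich spots (filled circles) and in remaining spots (open squares), with 95% counting intervals. Contractile and arterial lists lie farther to the right in the remaining spots, while fibrillar collagen, activated fibroblast and basement membrane lists lie farther to the right in the vessel-rich spots.

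The difference between the sections in how far vessel-rich spots exceeded the remaining spots was taken gene by gene. It equals the change in vessel-rich spots minus that in remaining spots, so a scaling by section cancels. Of 7493 genes with at least 400 UMIs in all, 56 had a difference of more than 2-fold upward, or 0.747%, and 54 downward, or 0.721%, and the median was 0.00. Contractile genes had a median difference of -0.56, with 10 of 12 below 0 and 2 past 2-fold, Tpm2 at -1.80 (-2.05 to -1.56) and Myl9 at -1.41 (-1.66 to -1.16). Acta2 followed at -0.79 (-0.94 to -0.64), and Smtn, Synpo2 and Actn1 had intervals that included 0. Nppa had the difference with the narrowest interval among the lowest genes, -1.98 (-2.08 to -1.89), and Aoc3 had -1.44 (-1.88 to -1.01), Mrvi1 -1.17 (-1.80 to -0.55) and Gja4 -1.11 (-1.61 to -0.62).

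Upward differences were led by genes with few control UMIs. Cyp1b1 had the highest value, 2.42 (-0.48 to 5.31), from 1 UMI in control vessel-rich spots, and Myl7, an atrial light chain, had 2.25 (0.90 to 3.59), from 5. Matrix genes with more UMIs lay on both sides of 0. Among those above 0, none of them past 2-fold, Fn1 had 0.81 (0.46 to 1.17), Nid1 0.71 (0.39 to 1.04), Fbn1 0.60 (0.29 to 0.90), Col4a1 0.49 (0.35 to 0.63) and Col1a1 0.49 (0.30 to 0.67). Eln had -0.95 (-1.19 to -0.70) and Mfap4 -1.29 (-1.71 to -0.87), and of 15 elastic fibre genes 9 lay above and 6 below 0, with 1 past 2-fold downward and none upward. Of 10 fibrillar collagens 9 lay above 0 with a median of 0.40, and of 10 basement membrane genes 9 with a median of 0.26. No member of either list passed 2-fold, while arterial genes had a median of -0.44, with 1 of 6 past 2-fold downward. Cardiomyocyte genes lay below 0 in all 18, with a median of -0.29. By their medians, contractile and arterial genes thus had the smaller excess in transgenic vessel-rich spots. Collagens and basement membrane genes had a larger one that stayed under 2-fold for each member. The score split the transgenic spots less sharply. Its median was 3.29 per 10000 UMIs in vessel-rich and 0 in remaining control spots, and 3.73 and 0.59 in transgenic ones. No score UMI was found in 844 of 1124 remaining control spots and 364 of 829 remaining transgenic spots. The part of this weaker split in the differences was not tested.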

How the data were processed

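The deposited matrices hold raw UMI counts, not normalized, of the spots over tissue from Visium CytAssist of formalin-fixed heart sections of 5 μm on 6.5 mm capture areas, made with Space Ranger 2.0.0 per the file headers; the submitters' processing notes name GRCm39 and mm39. The authors also deposited a spatial score per gene (Moran's I), which was not used for any value given. Spot positions and tissue flags were used as deposited. The matrix held 19465 genes, and 22 of these share a symbol with another gene.

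Spots with at least 1000 UMIs were kept, which left out 7 control and 3 transgenic spots, and the 10% with the highest score (Myh11, Tagln and Cnn1 UMIs over all UMIs) were taken in each section. The score genes were left out of all results. UMIs were summed over the vessel-rich and the remaining spots of each section and divided by the set's total, so the 4 sets held between 1331098 and 12908280 UMIs. Ratios carry exact conditional binomial 95% intervals, and differences of ratios carry intervals from 4 Poisson counts. They cover counting error only. Genes needed 200 UMIs within a section, 50 between vessel-rich sets and 400 for the difference, and past 2-fold counted as called. No test was possible with 1 section per genotype, since spots are not replicates. The members and all 31 gene lists were chosen with earlier results of these data known. Genes were named by a rule: smooth muscle list members above the minimum, the highest, lowest and most abundant gene of each other list, the 10 highest and 10 lowest ratios of each comparison, and Top2b. Further list members named in the text were chosen after their values were seen. Scaling used edgeR 4.0.16 (TMM) and DESeq2 1.42.0 as alternatives. Python 3.11.15, numpy 2.4.6, pandas 2.3.3, scipy 1.17.1 and R 4.3.3 were used. The probe set, the level of the sections in the heart and their time after tamoxifen are not given in the sources used here. Myl6 and a few other list genes were not analysed here.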

Additional observations from a re-analysis of the deposited data

How the results depend on the processing

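The counts of genes past 2-fold depended most on the minimum of UMIs and on the share of spots taken. For vessel-rich over remaining spots of the control section, 44 genes became 96 with a minimum lowered 2-fold, 2244 with 1 UMI in each set, 5 with 5 times the minimum, 117 with the top 5% of spots and 20 with the top 20%. For the transgenic section, 45 genes became 106, 2319, 9, 152 and 22 in the same order, 23 with the control cutoff in both sections, 22 with the score without Cnn1, 28 after thinning spots to 5000 UMIs and 79 with means over spots. Between vessel-rich sets, 1598 genes became 4388 with 1 UMI and 583 with 5 times the minimum. For the difference, 110 genes became 297 with the lowered minimum, 2406 with 1 UMI, 7 with 5 times the minimum, 357 with the top 5% and 25 with the top 20%. The 8 contractile genes of the control section became 3 with 5 times the minimum and 9 with the top 5%. The 2 of the transgenic section became 6 with 1 UMI, 1 with 5 times the minimum, 8 with the top 5%, 1 with the top 20%, 0 with the score without Tagln, 4 without Cnn1 and 5 with means over spots. Fewer or more genes are tested when the minimum moves, and the cause of the other shifts was not tested.

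Over 15 alternatives and 16 named genes, 943 of 960 values kept their sign, and 822 stayed within the counting interval of the value reported. The minimum of UMIs cannot move a gene's own ratio and is not counted there, and the control cutoff leaves the 16 ratios within the control section as they were. Leaving out spots rich in erythroid genes, an alternative chosen after seeing the data, gave 46, 38, 1565 and 109 genes. No paired analysis was possible because each genotype has 1 section and the labels give no replicate numbers. Depth limits genes with few UMIs, whose intervals span several-fold.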

Other observations

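Genes that act on vessel tone from other cells were also measured. The 12 vasoactive genes analysed together stood at 265 CPM in control and 868 CPM in transgenic vessel-rich spots, and at 240 and 679 CPM in the remaining spots. Of 8 with enough UMIs 6 were more than 2-fold higher in transgenic vessel-rich spots, where 14.8% of all genes were. For 3 of the 6 the minimum of UMIs fixed it. The median of the 8 was 1.75 in vessel-rich and 2.05 in remaining spots, so the rise was not particular to vessel-rich spots. Ace, which forms angiotensin II, held the most UMIs of the list in transgenic vessel-rich spots, with 526 UMIs against 68 in the control, a ratio of 3.09. Growth factor genes that act on mural cells lay above 0 in all 9 measured members, with 3 past 2-fold, where 14.8% of all genes were. Their median was 0.58 against 0.74 in the remaining spots, and Tgfb3 went from 53 to 228 UMIs.

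Small lists had few UMIs. Nerve and Schwann cell genes stood at 32.8 CPM in vessel-rich and 29.0 CPM in remaining control spots and at 44.3 and 31.6 CPM in transgenic ones. Atrial genes stood at 90.9 CPM in vessel-rich and 54.6 CPM in remaining transgenic spots. Skeletal muscle genes stood at 8.88 and 9.22 CPM in the control and 76.6 and 42.4 CPM in transgenic spots, and genes of cartilage and valves at 37.6 and 20.7 CPM, then at 111 and 71.0 CPM. Lymphatic endothelial genes stood at 166 and 180 CPM, then at 141 and 127 CPM. Adventitial fibroblast genes stood at 453 and 389 CPM, then at 499 and 448 CPM. Lymphocyte genes lay between 29.4 and 45.1 CPM in the 4 sets, and adipocyte genes between 1.503 and 5.46 CPM, with 5 of 7 at 0 in transgenic vessel-rich spots.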
